A study of Mus musculus with 12 samples.

Results

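The cytosines described here are the autosomal CpG cytosines that stayed unmethylated in every mouse oral tissue sample of the series. They were chosen by their methylation levels: each had at least 10 reads in all 12 samples and no more than 5% methylated reads in any of them. The 2 strands of a CpG counted as separate positions. Of 37218 autosomal cytosines with at least 10 reads in all 12 samples, 12328 met the rule, which is 33.1% (95% Wilson interval 32.6 to 33.6%). These 37218 are called covered cytosines below, and the 12328 are called consistently unmethylated.

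The samples were soft tissues of the oral cavity from female B6C3F1/J mice that were 8 weeks old when they entered the study. The buccal mucosa, the floor of the mouth and the soft tissue on the hard palate were combined before DNA was extracted, so each sample mixes epithelium with other cell types, and the labels do not say whether a sample holds 1 mouse or several. There were 4 groups of 3 samples: mice given the vehicle DMSO, mice given DBP (dibenzo[def,p]chrysene, a polycyclic aromatic hydrocarbon of tobacco smoke, 24 nmol applied in the mouth 3 times per week for 5 weeks and followed after 48 h by the collection of tissue), mice given DBP with an unnamed chemopreventive agent, and mice given DBP with BR extract. The labels give no dose or route for the agent and the extract. The enhanced reduced representation bisulfite sequencing (ERRBS) libraries were cut with MspI at CCGG, selected for fragments of 70 to 320 bp and read for 50 bases from 1 end.

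In mammalian DNA most CpGs carry a methyl group on the cytosine, except in CpG islands, stretches rich in CpG that cover the starts of most housekeeping genes and of many developmental genes. Methylated cytosine is prone to mutate to thymine, and CpG is therefore rare outside islands. Unmethylated island CpGs are bound by proteins with a CXXC zinc finger, which recruit enzymes that place the promoter mark H3K4me3, and that mark keeps de novo methyltransferases away. Bisulfite turns unmethylated cytosine into uracil and leaves methylated cytosine unchanged, so that each read calls a cytosine one way or the other.

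Total CpG calls ran from 3287367 to 78889043 per sample. The DMSO and DBP libraries were shallower, with a median of 16 to 36 reads at covered cytosines, than 5 of the 6 libraries of the other groups, with 73 to 131. DBP+BR extract sample 1 stood apart, with the most calls but a median of 37 reads at covered cytosines and 28.1% methylated reads outside CCGG, against 18.0 to 22.2% in the other 11. Without it, 16999 of 51728 covered cytosines met the rule, or 32.9%. The limit of 5% permits no methylated read at a depth below 20, and 9829 of the consistently unmethylated cytosines (79.7%) had fewer than 20 reads in at least 1 sample. The intervals given here account for counting error alone, as PCR copies of 1 molecule cannot be told from separate molecules.

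Reference sequence (mm9, plus strand, 5′ to 3′) is shown for 3 of the 10 longest unbroken runs of consistently unmethylated cytosines, all 3 upstream of a start and outside annotated exons, to show how closely such cytosines sit. Capitals mark each CpG of which 1 strand was consistently unmethylated. Each window runs from one MspI site to the next. The lower-case CpGs in its middle are those without 10 reads in all 12 samples, since a covered cytosine with a higher level would have ended the run. The windows lie at chr2:154261962-154262173 (Cbfa2t2), chr12:103943369-103943566 (Itpk1) and chr6:38826288-38826474 (Hipk2).
Cbfa2t2: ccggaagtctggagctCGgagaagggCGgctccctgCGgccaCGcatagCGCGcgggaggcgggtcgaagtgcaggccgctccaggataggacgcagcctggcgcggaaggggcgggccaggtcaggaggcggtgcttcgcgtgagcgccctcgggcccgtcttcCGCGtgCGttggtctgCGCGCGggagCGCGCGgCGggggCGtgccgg
Itpk1: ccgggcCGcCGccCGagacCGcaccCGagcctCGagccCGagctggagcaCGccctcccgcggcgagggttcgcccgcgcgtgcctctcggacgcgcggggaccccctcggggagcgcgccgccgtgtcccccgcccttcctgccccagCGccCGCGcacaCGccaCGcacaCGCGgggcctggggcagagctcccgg
Hipk2: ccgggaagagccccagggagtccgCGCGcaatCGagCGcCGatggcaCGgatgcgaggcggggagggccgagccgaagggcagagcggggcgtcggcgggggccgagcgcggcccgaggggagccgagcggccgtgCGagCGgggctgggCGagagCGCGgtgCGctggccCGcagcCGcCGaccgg

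The Cbfa2t2 window of 212 bases holds 33 CpGs, of which 17 are in capitals, the Itpk1 window of 198 bases holds 34 with 15 in capitals, and the Hipk2 window of 187 bases holds 33 with 15 in capitals. Reads start at the cuts, and the capitals lie in a group toward each end. The ccgg at each end is in lower case in all 3 windows.

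That last feature held throughout. None of the 11052 covered cytosines inside CCGG was consistently unmethylated, which allows a share of up to 0.0271% at 3 counts, whereas 12328 of 26166 outside CCGG were (47.1%, 95% Wilson interval 46.5 to 47.7%). Over the 12 samples, 56.9 to 60.4% of reads at CCGG cytosines and 18.0 to 28.1% of reads at other covered cytosines were methylated. At 2164 CCGG cytosines whose nearest other covered cytosine lay within 50 bp and was consistently unmethylated, 24.1 to 31.7% of reads were methylated. A covered cytosine of CCGG is the first CpG of its read. In 2088 cases in which the next covered cytosine of the same read direction, within 40 bases, was consistently unmethylated, the CCGG cytosine had 85.3 to 88.1% as many reads as that cytosine. The corresponding range was 92.5 to 94.0% in 4901 cases in which the next cytosine was not. The cause of the difference at CCGG was not tested, and each share given below is over all covered cytosines or over the 26166 outside CCGG, as stated.

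**Figure D1:**
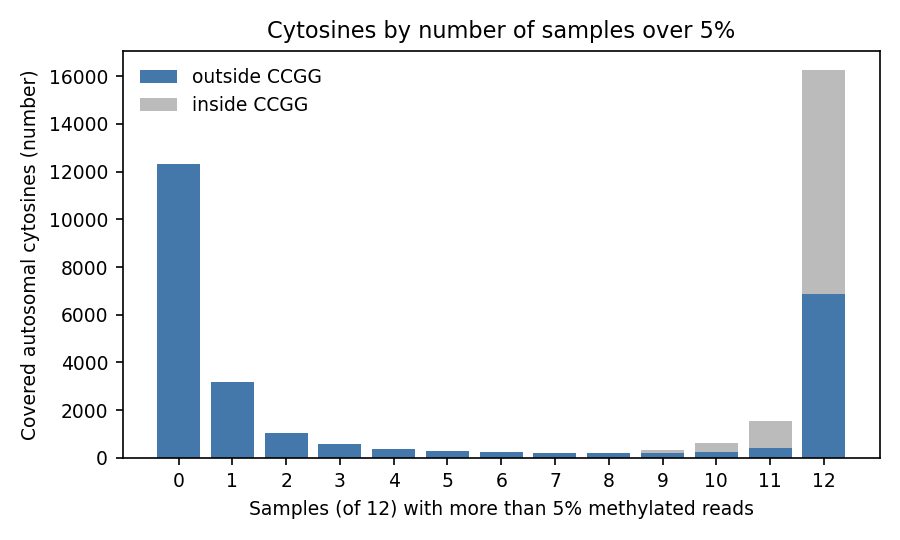
Number of covered autosomal cytosines (y axis) by the number of the 12 samples in which more than 5% of reads were methylated (x axis), split into cytosines inside and outside CCGG. The 12328 at 0 samples are the consistently unmethylated cytosines, none of them inside CCGG, and 16258 exceeded the limit in all 12 samples.

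Most covered cytosines exceeded 5% in none of the samples or in all of them. Besides the 12328 that exceeded 5% in no sample, 3181 (8.55%) did so in 1 sample, 5451 (14.6%) in 2 to 11 samples, and 16258 (43.7%) in all 12. Exceeding the limit everywhere did not mean a high level. Of the 16258, 9368 were inside CCGG, and 6890 were outside, where 1478 had at least 80% methylated reads in all 12 samples. The histogram of samples over the limit shows the trough between. As the only sample over the limit, a library accounted for 139 cytosines (DMSO 1) to 369 (DBP+BR extract 1). Close to the limit, 1014 chosen cytosines had a highest sample above 4%, and 740 cytosines were left out with a highest sample above 5 and up to 6%. Just inside it were a cytosine 222 bp upstream of Ncoa2, a nuclear receptor coactivator, at 5% in DBP 2 (1 of 20 reads), and one 778 bp downstream of the start of Ihh, a hedgehog ligand, at 5% in DMSO 3 (1 of 20 reads). Just outside was one 19 bp downstream of the start of Shroom3, a cytoskeletal regulator of cell shape, at 5.02% in DBP+agent 1 (11 of 219 reads) and at 0% in every other sample.

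Within the limit the cytosines were close to fully unmethylated. No methylated read was seen in any sample at 5725 of them (46.4%, 95% Wilson interval 45.6 to 47.3%). Pooled over all 12328, methylated reads made up 0.204, 0.144 and 0.0938% in DMSO samples 1, 2 and 3, and 0.240, 0.275 and 0.191% in those given DBP. They made up 0.244, 0.158 and 0.141% in the DBP+agent samples and 0.198, 0.162 and 0.187% in the DBP+BR extract samples. The sample ranges of all 4 groups thus fell below 0.3%, and these values are a description because they chose the cytosines.

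Most consistently unmethylated cytosines lay in promoters. By the GENCODE vM1 annotation, 10778 of the 12328 (87.4%) were within 1000 bp of the start of a protein-coding transcript, against 52.1% of all covered cytosines and 60.4% of those outside CCGG. Of the rest, 566 (4.59%) were exonic, 357 (2.90%) intronic and 627 (5.09%) intergenic, whereas covered cytosines outside CCGG that did not meet the rule were 20.1% exonic, 19.5% intronic and 24.0% intergenic. The median distance to a protein-coding start was 201 bp, against 485 bp for all covered cytosines outside CCGG and 4524 bp for those that did not meet the rule. Promoter cytosines often lie in a first exon too: 52.8% of the consistently unmethylated cytosines overlapped an exon of some transcript and 27.8% overlapped an untranslated and no coding exon.

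**Figure D2:**
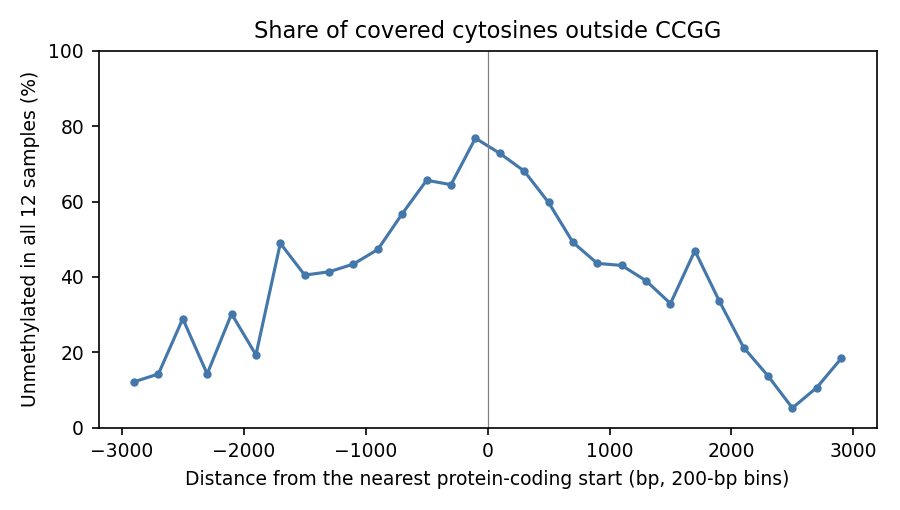
Share of covered cytosines outside CCGG that were unmethylated in all 12 samples (y axis, percent) in 200-bp bins of distance from the nearest protein-coding start (x axis, upstream negative). The share was highest, 76.8%, in the 200 bp upstream of the start.

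Around a start the share peaked just upstream and fell off on both sides. It was 76.8% of 3321 covered cytosines outside CCGG from 200 to 0 bp upstream, and 72.8% of 4929 in the first 200 bp downstream. It was 47.3% at 800 to 1000 bp upstream and 43.6% at 800 to 1000 bp downstream. At 2400 to 2600 bp downstream it was 5.26%, of 57 cytosines. The fall was not smooth. At 1600 to 1800 bp the share was 48.9% of 47 cytosines upstream and 47.0% of 149 downstream, above the neighbouring bins on both sides, with few cytosines behind each such bin.

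CpG density separated the cytosines as well. In the 200 bp around a consistently unmethylated cytosine there were 20 CpGs in the median (interquartile range 15 to 26), against 13 around all covered cytosines and 10 around those outside CCGG that did not meet the rule. The share that met the rule rose from 2.55% of 3180 cytosines outside CCGG with at most 5 CpGs in 200 bp to 74.7% of 2583 with 26 to 30, and was 74.3% of 1555 above that. The rise was seen in and beyond promoters. Beyond them the share was 0.977% at up to 5 CpGs and 61.6% above 30 CpGs, whereas within promoters it was 16.8% and 76.8%. Windows with the base composition of an island, here over 50% G+C and an observed to expected CpG ratio over 0.6 in 200 bp, held 92.0% of the consistently unmethylated cytosines, 56.9% of all covered ones and 68.3% of those outside CCGG. These properties belong to the reference sequence and were not used by the rule, but cytosines that share a promoter are not independent, and no test was made.

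Consistently unmethylated cytosines were found on every autosome and were rare on X. The share of covered cytosines that met the rule ran from 25.5% on chromosome 17 to 37.3% on chromosome 16, and from 36.3 to 54.4% on the same chromosomes outside CCGG. Under the same limits 7 of 852 covered X cytosines qualified, or 0.822% (95% Wilson interval 0.399 to 1.69%), as did 1.05% of the 569 outside CCGG. In female cells 1 X chromosome is silenced and the islands of many of its genes are methylated, which is given as background. Among cytosines outside CCGG in promoter windows with island composition, 72.1% of 13901 autosomal ones and 1.52% of 263 X-linked ones met the rule. In the same windows 22.7 to 32.2% of X reads and 1.37 to 2.25% of autosomal reads were methylated, with no overlap between the ranges of the 12 samples.

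Consistently unmethylated cytosines clustered along the chromosome. Of the covered cytosines outside CCGG that lay 2 to 10 bp from one, 86.7% were also consistently unmethylated. The share was 77.1% at 101 to 200 bp, 62.1% at 501 to 1000 bp and 44.4% at 2001 to 5000 bp. For comparison, 47.1% of all covered cytosines outside CCGG met the rule, and so did 10778 of the 15811 in promoters. How much of the clustering reflects location in promoters was not tested. Close neighbours often share reads, so the shortest distances are not independent observations. Ordered along the chromosomes with gaps of at most 1000 bp and every covered cytosine that failed the rule ending a run, the 12328 formed 4041 runs. There were 1387 runs of 1 cytosine and 866 runs of 5 or more, and these 866 held 48.3% of the consistently unmethylated cytosines. Runs of 5 or more spanned 38 bp in the median. When CCGG cytosines were passed over there were 3876 runs and the longest, at Nupl1, a nucleoporin gene, had 20 cytosines.

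The 10 longest runs held 15 to 18 cytosines over 158 to 197 bp, and 9 of the 10 lay within 1000 bp of a protein-coding start. The run at Ppp3cc, a catalytic subunit of calcineurin, had 18 cytosines at chr14:70689141-70689307. Its pooled level ran from 0 to 0.231% over the 12 samples with a median of 0.0972%, from 482 to 6938 reads per sample. At Cbfa2t2, which encodes a transcriptional corepressor, the run shown above had 17 cytosines between 239 and 50 bp upstream of the start, and 8 of 12 samples had no methylated read there. Dnajb4, a co-chaperone of the Hsp40 family, also had 17 cytosines, with no methylated read in 9 of 12 samples and a highest sample of 0.717%. At Srsf2, a splicing factor, 15 cytosines gave 2 methylated reads of 13640 over all samples. The runs at Itpk1, an inositol phosphate kinase, and Hipk2, a serine/threonine kinase, had 15 cytosines each and highest samples of 0.467 and 0.219%. The others were at 5730522E02Rik and Shb, an adaptor protein with an SH2 domain, with 16 cytosines each, and at Zfp706 and Bhlhe41, with 15 each. The Bhlhe41 run was the only one of the 10 away from a start: it lay in exons 2018 to 2198 bp downstream of the start of this gene, which encodes a repressor of the circadian clock.

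Of the consistently unmethylated cytosines, 608 (4.93%) lay more than 10000 bp from any protein-coding start, against 29.98% of all covered cytosines and 23.3% of those outside CCGG. Their sequence still resembled islands: 518 of the 608 had island composition, with 20 CpGs in 200 bp in the median, and 150 lay within 1000 bp of the start of another annotated transcript. The 5 longest runs among them had 9 to 12 cytosines. One of 12 was 16330 bp upstream of Zfp518a at chr19:40969243-40969653, and one of 11 was in an intron 31531 bp upstream of the nearest start, that of Mreg, at chr1:72290412-72290586. The run at chr9:31839987-31840030, 83691 bp upstream of Arhgap32, had 11 cytosines, and 10 of 12 samples had no methylated read there. The run at chr3:79091034-79091072, 58226 bp upstream of Gm17359, had 10 cytosines, with 3 methylated reads of 13406 over all samples. The fifth, in exons 38269 bp upstream of Slc38a10, had 9 cytosines. The mm9 plus strand of 2 of these runs is shown to compare their density with the promoter runs, with capitals as before.
chr9:31839982-31840036: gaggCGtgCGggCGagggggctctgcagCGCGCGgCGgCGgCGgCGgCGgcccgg
chr3:79091029-79091081: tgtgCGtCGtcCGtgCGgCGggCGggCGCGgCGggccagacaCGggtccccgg

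The first of these windows has 12 CpGs in 55 bases and the second 11 in 53. As in the promoter runs, the ccgg at the cut is the CpG left in lower case.

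The cytosines around a consistently unmethylated one were read as well in part of the samples, and those with fewer than 10 reads in at least 1 sample played no part in the choice. Such cytosines outside CCGG were nearly unmethylated when they lay near a consistently unmethylated one. At 51 to 500 bp from it, beyond the length of a read, 129460 cytosines had 0.730 to 1.14% methylated reads over the 12 samples, with a median of 0.938%. When the nearest covered cytosine was any other, 99768 cytosines at the same distances had 12.5 to 20.9%, with a median of 15.8%. The first value was lower in 12 of 12 samples, with a mean difference of -15.2 points ± 2.74 (SD, n = 12). These cytosines were sorted by the levels of their neighbours in the same 12 samples, so the difference is a description and no p-value is given. The comparison, and the bands of distance in it, were chosen after the data were seen.

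The difference faded with distance. The median level beside a consistently unmethylated cytosine was 1.02% at 201 to 500 bp, 1.95% at 501 to 1000 bp, 8.25% at 1001 to 2000 bp and 25.9% at 2001 to 5000 bp. Beside any other covered cytosine it was 12.4, 12.1, 21.1 and 27.5% at these distances. At 5001 to 20000 bp the medians were 28.2 and 28.5%. On the opposite strand of the same CpG, 1 bp away, 1633 cytosines beside a consistently unmethylated one had a median level of 0.976%, and 1419 beside any other had 18.2%.

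**Figure D3:**
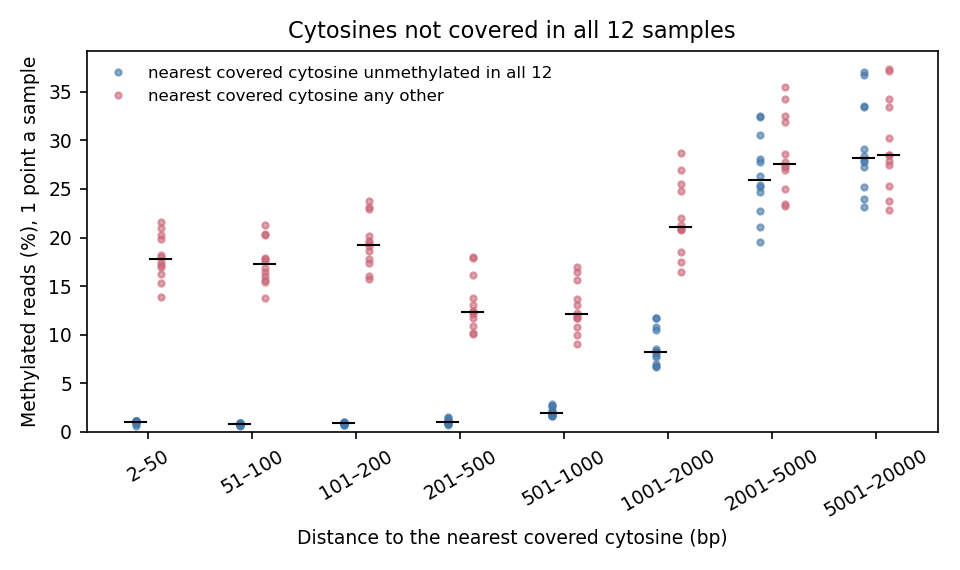
Methylated reads (y axis, percent) in each of the 12 samples at cytosines outside CCGG that lacked 10 reads in at least 1 sample, by distance to the nearest covered cytosine (x axis, bp), which was either consistently unmethylated or any other. Black bars are medians: 0.815% against 17.2% at 51 to 100 bp, and 28.2% against 28.5% at 5001 to 20000 bp.

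Highly methylated cytosines were seldom close by. Outside CCGG 1478 covered cytosines had at least 80% methylated reads in all 12 samples. Only 1 of 12328 consistently unmethylated cytosines lay within 1000 bp of such a cytosine, compared with 802 of the 12360 covered cytosines outside CCGG that belonged to neither set (6.49%). The exception was in an exon of Sfi1, a centrosomal protein gene, on the minus strand at chr11:3050784-3050784. It had at most 3.23% methylated reads, while its neighbour 2 bp away had 85.7 to 98.6% over the 12 samples, with at least 49 reads at each. Within 5000 bp there were 77 (0.625%). Both sets were chosen by their levels in these samples, and the counts are a description.

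The gene classes were compared over promoters, in which a gene counted as measured with at least 5 covered cytosines within 1000 bp of its starts. There were 1989 such genes of 21275, and in the median gene 71.4% of covered cytosines were consistently unmethylated. Outside CCGG 1592 genes had 5 covered cytosines, the median was 84.6%, every covered cytosine met the rule in 607 genes (38.1%), and none did in 110 (6.91%). Most cytosines met the rule at Fam63b, which encodes a deubiquitinase, where 24 of 27 covered cytosines did, and it shares them with the neighbouring Gm10642 (23 of 26). Cct7, a subunit of the chaperonin that folds actin and tubulin, and 1700040I03Rik opposite it share 23 of 31, and Cdk14, a cyclin-dependent kinase, had 22 of 27. Because these shares rest on the levels that chose the cytosines, they are given as counts and medians without a test, and the values that follow are shares of cytosines outside CCGG unless stated.

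Genes with an Eif symbol, most of them translation initiation factors, and splicing factors had medians above that of all genes. In 8 of 9 Eif genes and 8 of 10 splicing factors every covered cytosine was consistently unmethylated, against 38.1% of all measured genes. The 9 include Eif2c1 and Eif2c2, which despite their symbols encode Argonaute proteins of RNA silencing, each at 100%. Among the splicing factors Hnrnpul1, a nuclear ribonucleoprotein, had 12 of 12, with 0 to 0.143% methylated reads over the samples, and Srsf2 had 93.8% of 16. The lowest was Hnrnpab at 63.6% of 11, with a highest sample of 5.58%. Eif2b1, a subunit of the exchange factor for eIF2, had 9 of 9, and it shares this promoter with Gtf2h3, a subunit of the repair and transcription factor TFIIH. Eif2ak3, the endoplasmic reticulum stress kinase PERK, which is not an initiation factor either, was the lowest Eif gene at 47.1% of 17.

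Cytosolic ribosomal proteins had a median of 100% over 5 genes, mitochondrial ribosomal proteins 85.7% over 7 and proteasome subunits 80% over 3. Rpl32 had 6 of 6 and Mrps26 had 7 of 7, whereas Mrps27 had 0% of 5. That low value did not mark a promoter methylated in most samples: the median sample had no methylated read at Mrps27, and its highest sample stood at 6.12%. Psma7, a subunit of the 20S core, had 80% of 15, and Psmd14, a deubiquitinase of the 19S lid, had 28.6% of 7.

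**Figure D4:**
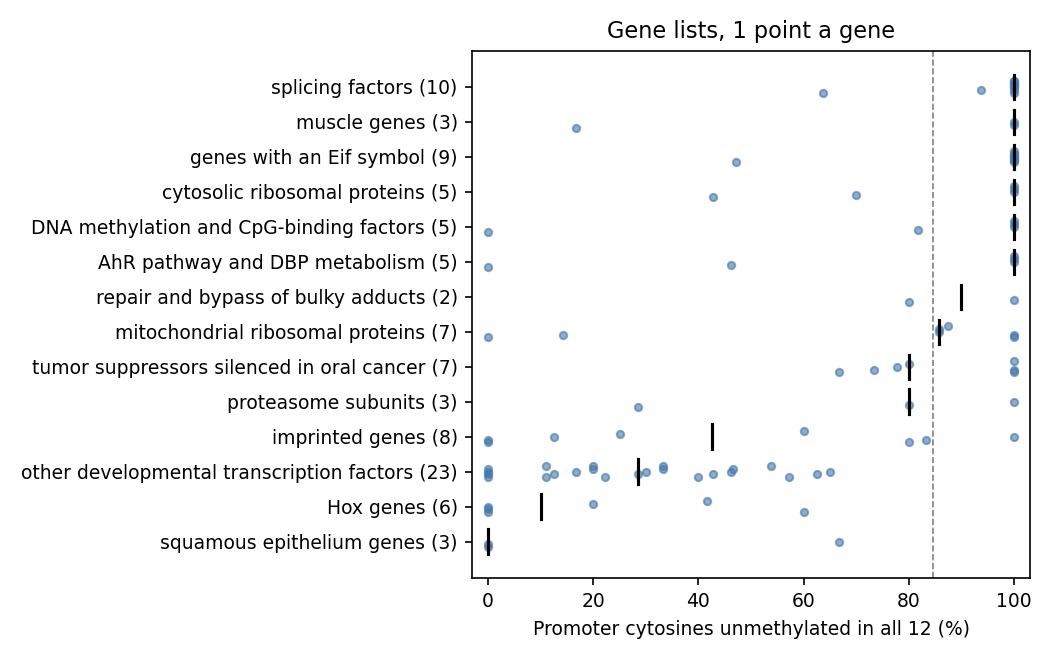
Share of each gene's covered promoter cytosines outside CCGG that were unmethylated in all 12 samples (x axis, percent), by gene list (y axis, number of measured genes in parentheses), with 1 point a gene and the list's median as a black bar. The dashed line is the median of all 1592 genes, 84.6%; Hox genes (10%) and other developmental transcription factors (28.6%) stood to its left, and genes with an Eif symbol and splicing factors (100%) to its right.

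Developmental regulators stood below the median of all genes. In 6 Hox genes, which pattern the body axis, the median was 10%, and in 23 other developmental transcription factors it was 28.6%. No measured gene of either list had every covered cytosine consistently unmethylated. The covered promoter cytosines had 23.5 CpGs in 200 bp in the median for the Hox genes and 19 for the other factors, against 22 for all measured genes. Few of them were methylated in every sample. Of 223 cytosines of the 23 factors, 32.3% met the rule, 49.8% exceeded 5% in 1 to 3 samples, 15.7% in 4 to 11 and 2.24% in all 12, against 71.9, 22.3, 4.15 and 1.62% of the 11231 cytosines of all measured genes. Of the 42 cytosines of the Hox genes, 21.4% met the rule, 61.9% exceeded 5% in 1 to 3 samples, and none in all 12. Pooled over its cytosines, the Hox list had 1.23 to 3.20% methylated reads over the 12 samples and the other list 2.01 to 3.26%, with medians of 2.08 and 2.79%, against 1.48 to 3.81% with a median of 1.65% for all measured genes. These ranges overlapped: the Hox list was above all measured genes in 7 of 12 samples and below them in 5, and the other list was above in 11 and below in 1.

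Single developmental genes show the same low but uneven levels. Hoxa9 had no consistently unmethylated cytosine among 6. It had 4.31, 4.45 and 2.91% methylated reads with DMSO, 8.14, 2.40 and 6.36% with DBP, 3.25, 3.395 and 4.53% in the DBP+agent samples and 2.96, 13.7 and 6.63% in the DBP+BR extract samples. The DMSO and DBP samples overlapped, and DBP+BR extract 2 was highest. Hoxd11 had 41.7% of 12, and Hoxb8 had 0% of 6, with a median sample of 2.32%. Tbx1, a T-box factor of the pharyngeal arches, led the other list with 13 of 20 and 0 to 2.84% over the samples. Barhl1, a homeobox factor of neurons, had 0 of 5 and 2.15 to 22.5%. Foxe1, a forkhead factor of thyroid and palate, had 0 of 4.

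Imprinted genes are methylated on 1 parental copy at their control regions, and here they had a median of 42.5% over 8 genes. Of their 61 cytosines 18.0% exceeded 5% in all 12 samples. The cytosines at Gnas, which encodes a G protein subunit from several promoters, had a median sample of 19.99% and those at Igf2r, a receptor that clears Igf2, 19.4%, with no consistently unmethylated cytosine among 10 and 8. Igf2r ranged from 0 to 81.8%, the latter in DBP+BR extract 1. Blcap, by contrast, had 6 of 6.

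Few genes of oral tissue identity were measured. Of the squamous epithelium genes only 3 had enough cytosines. Jup, the junction protein plakoglobin, had 66.7% of 6, Grhl2, an epithelial transcription factor, had 0% of 7 with a median sample of 4.72%, and Pkp3, a desmosomal plakophilin, had 0% of 5 with 12.4 to 50.9% over the samples. Of the muscle genes Mef2a, a transcription factor, and Tpm1, a tropomyosin, had 7 of 7, while Des, the intermediate filament desmin, had 16.7% of 12 and 4.28 to 13.7%. The samples mix tissues, and whether a level reflects a share of cells or a level within cells cannot be told apart.

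The lists closest to the question of the study, oral carcinogenesis by an adduct-forming hydrocarbon, had medians near or above that of all genes, over 2 to 7 genes each. Pooled over cytosines, 65.1% of the AhR list met the rule, below the 71.9% of all measured genes. The tumor suppressors (83.3%), the repair list (89.5%) and the DNA methylation list (76.9%) were above. The 7 measured tumor suppressors silenced in oral cancer had a median of 80%: Socs1, an inhibitor of cytokine signalling, had 8 of 8 with no methylated read in 11 of 12 samples, Sfrp1, a Wnt antagonist, had 73.3% of 15 with 0.149 to 0.967%, and Rarb, a retinoic acid receptor, was the lowest at 66.7% of 6. Of the AhR pathway and DBP metabolism, Tiparp, an AhR target and repressor, had 8 of 8 and Akr1b3, an aldo-keto reductase, 7 of 7, whereas Srxn1, an Nrf2 target that restores peroxiredoxins, had 0 of 8, with a median sample of 1.26% and 11.9% in DBP+BR extract 2. Of repair and bypass of bulky adducts, Rpa2, a single-strand binding protein, had 8 of 10. Of the DNA methylation and CpG-binding factors, Mbd6 had 10 of 10, Mbd3 81.8% of 11, and Dnmt3b, a de novo methyltransferase, 0 of 7 with a median sample of 1.98%. The germline list had 1 measured gene, Tex15, a testis gene, at 22.2% of 9. No olfactory or vomeronasal receptor of 1399 reached 5 covered cytosines, and of the replication-dependent histones only 2 did, counting CCGG, with Hist1h1b at 40% and Hist1h1e at 20%.

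Short motifs were counted in the promoters of the measured genes. In the 300 bases from 250 before to 50 after the start (mm9, both strands), GGGCGG, the GC box, was present in 69.5% of the 607 promoters whose covered cytosines all met the rule, in 67.3% of the 875 with some and in 63.6% of the 110 with none, against 44.4% of all 21275 promoters. Measured promoters were richer in G+C, with medians of 64.0, 64.7 and 61.3% in the 3 classes against 55.7% in all. TATAAA was present in 5.27, 5.60 and 6.36% of the 3 classes and in 13.5% of all promoters. GCGCATGC, the core of the Nrf1 site, was present in 6.75, 4.11 and 2.73% and in 3.42% of all, and TCGCGA in 8.07, 4.11 and 6.36% and in 3.27% of all. CCGGAAGT, an Ets motif that contains an MspI site, was present in 8.57, 6.51 and 7.27% and in 4.93% of all. CACGTG, the E-box, was present in 10.2, 8.80 and 4.55% and in 7.78% of all. For ATTGGC, the CCAAT box, the shares were 20.8, 19.9 and 15.5% and 16.1% of all. For TGACGTCA, the cAMP response element, they were 3.62, 3.89 and 2.73% and 2.33% of all. These are matches of letters in reference sequence, and no test was made.

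Whether cytosines within the limit in the other samples differed in level with DBP was asked with levels that had not been used to choose them. For each sample, cytosines were chosen by the other 11 samples, and the sample left out was then read. The 12467 to 12697 cytosines so chosen had 0.258, 0.315 and 0.277% methylated reads in DMSO samples 1, 2 and 3, and 0.418, 0.391 and 0.323% in the DBP samples. They had 0.367, 0.291 and 0.334% in the DBP+agent samples and 0.468, 0.429 and 0.338% in the DBP+BR extract samples. All 3 DBP samples thus stood above all 3 DMSO samples, by as little as 0.323 against 0.315%, and the other groups overlapped the DBP group. The samples that chose the cytosines always included samples from mice given DBP. A cytosine that DBP raised above the limit throughout the treated groups was therefore left out, and the comparison does not bear on such rises.

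DMSO samples averaged 0.283% ± 0.0292 (SD, n = 3) and DBP samples 0.377% ± 0.0485, a difference of 0.0941 points ± 0.0327 (SE) that did not pass the test (two-sided exact permutation test, p = 0.1, the smallest that 3 against 3 samples can give; 0.3 after Benjamini-Hochberg adjustment over 3 comparisons). DBP+agent, at 0.331% ± 0.0384, differed from DBP by -0.0466 points ± 0.0357 (SE) (exact permutation p = 0.3, adjusted 0.45), and DBP+BR extract, at 0.411% ± 0.0668, by 0.0341 ± 0.0477 (SE) (exact permutation p = 0.5, adjusted 0.5). The last difference was 0.00254 points without DBP+BR extract sample 1 and 0.00182 points without DBP sample 3. Methylated calls outside CCGG in mitochondrial DNA, from 521 to 7126 reads per sample, made up 0.876% ± 0.561 (SD, n = 3) in DMSO and 1.498% ± 0.695 in DBP. They made up 0.595% ± 0.201 in DBP+agent and 1.62% ± 0.243 in DBP+BR extract. DBP was above DMSO in both measures, whereas DBP+agent was below DMSO in mitochondrial calls and above it in the held-out level. The part of such calls in the held-out differences was not tested. The share of left-out cytosines still at 5% or less was 98.1% ± 0.691 in DMSO and 97.8% ± 0.307 in DBP (exact permutation p = 0.8).

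**Figure D5:**
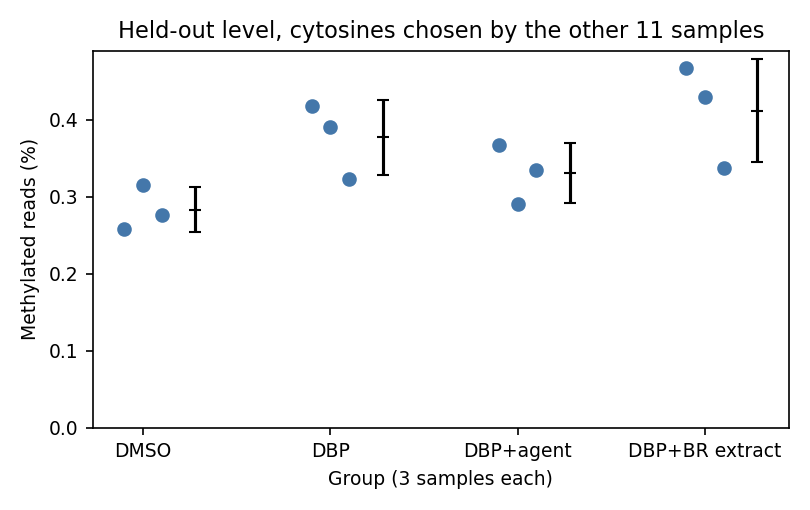
Methylated reads (y axis, percent) in each sample at cytosines chosen by the other 11 samples, by group (x axis), with the mean ± SD of 3 samples beside the points. DBP samples lie between 0.323 and 0.418% and DMSO samples between 0.258 and 0.315%.

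Single cytosines were tested by logistic regression of the read counts on DBP against DMSO over all 37218 covered cytosines. The regression pools the reads of each group and does not model the spread between its samples. At cytosines of intermediate level that spread exceeded counting noise, with a mean chi-square per cytosine of 1.66 to 2.30 between 2 samples of the DMSO or the DBP group. The q-values are therefore likely too small. At q < 0.01 and a difference over 10 points, 22 were called (0.0591%), 6 of them higher (0.0161%) and 16 lower (0.043%) in DBP. The balance of directions rested on single samples: there were 23 higher and 21 lower without DMSO 1, 7 and 2 without DMSO 2, 10 and 10 without DMSO 3 or without DBP 2, 1 and 2 without DBP 1, and 13 and 15 without DBP 3. Among 14211 cytosines with at most 5% in the 6 samples of the DBP+agent and DBP+BR extract groups, whose DMSO and DBP levels were not used in that choice, none was called by this regression or by Fisher's exact test on pooled reads. At an unadjusted p under 0.05 there were 490 of them (3.45%), against 2359 of the 26166 covered cytosines outside CCGG (9.02%) and 1280 of the 11052 inside (11.6%). The 26166 include nearly all of the 14211, and among the 11957 outside CCGG not so chosen there were 1869 (15.6%). The median absolute difference between DBP and DMSO was 0 points among the 14211 and 3.15 points among the 11957. Levels near 0 leave little room for a difference, so the smaller share and the absence of calls follow in part from the choice. The mice of those 6 samples were given DBP too, so a cytosine that rose with DBP in all 3 treated groups would have been left out of the 14211, and the absence of calls among them does not bear on such rises. Counts were simulated at these depths over all 37218 covered cytosines. DBP levels were raised at 200 cytosines that were methylated in a minority of DMSO and DBP reads. The regression recovered 58% of those raised by 20 points and 95% of those raised by 40 points. Smaller changes and decreases were not simulated. The 200 were not drawn from the 14211 alone, so these shares do not give the recovery among those. The simulated replicates differed by counting noise alone, unlike the measured ones, so these shares may not hold for the measured counts.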

How the data were processed

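Methylation was measured by ERRBS in 12 samples of mouse oral soft tissue, grouped by the titles of the samples. Per the submitters' processing notes, reads were handled with Trim Galore 0.3.3 and Bismark 0.10.1 on mm9. The authors deposited, for each CpG cytosine and strand, counts of methylated and unmethylated reads without normalization or a filter on coverage. The percent of methylated reads that the authors deposited beside them was recomputed from the counts. Duplicate reads cannot be recognised in such counts.

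Files were joined with pandas 2.3.3 and NumPy 2.4.6, and tests were made with SciPy 1.17.1 (Python 3.11.15). Genes came from GENCODE vM1 and sequence from NCBIM37, the assembly of mm9, whose copy here marks no repeats. The cytosines and the 17 gene lists were chosen with earlier results of these data known. Named were, in each list, the 2 genes with most and the 2 with the lowest share of consistently unmethylated cytosines, the 10 longest runs, the 5 longest far from starts, the 5 genes with most such cytosines and cytosines next to the limit, and a few others after their values were seen: Sfi1, Nupl1. Regressions and held-out levels were tested on simulated data. For the regressions 200 cytosines were changed, and for the held-out levels every cytosine of low pooled level was raised in DBP.

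Nothing in the labels says that replicates are separate animals, so p-values may measure technical spread. Replicates of a group differed beyond counting noise, and replicate numbers did not pair the samples. One gene that the naming rule picked is not reported here.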

Additional observations from a re-analysis of the deposited data

How the results depend on the processing

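The number chosen depends on depth and limit. It was 2499 at 20 reads (35.2% of covered cytosines), 31085 at 5 reads (31.3%) and 19492 when only DMSO and DBP samples were required (37.1%). The share was 23.2% at a limit of 2%, 41.4% at 10%, 47.1% by pooled reads, 31.2% with strands merged, 30.1% with 10 reads drawn, and 47.1% without CCGG cytosines, a choice made after seeing the data. Leaving out 1 sample gave 12557 to 21495 cytosines and 32.9 to 36.0%; 21495 was without DMSO 3, the shallowest library.

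The share of consistently unmethylated cytosines near a protein-coding start was 76.7% within 500 bp and 91.8% within 2000 bp, 90.01% with starts of all transcripts, 89.4% at a limit of 2% and 85.3% at 10%.

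No held-out difference changed sign, but those from DBP varied in size. At a limit of 10% they were 0.115 points for DBP minus DMSO, -0.00253 for DBP+agent minus DBP and 0.113 for DBP+BR extract minus DBP (exact permutation p = 0.1, 0.9 and 0.6), and the last was 0.0958 at 20 reads and 0.0636 as a mean over cytosines. Leaving out 1 sample gave 0.0744 to 0.124 points for DBP minus DMSO, -0.0751 to -0.0247 for DBP+agent minus DBP and 0.00182 to 0.0760 for DBP+BR extract minus DBP. The replicate block left these differences at 0.0941, -0.0466 and 0.0341 points (exact permutation p = 0.25, 0.5 and 0.25).

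Calls over all cytosines numbered 24 with the replicate block, 9 by Fisher's exact test, 13 at 20 reads, where fewer cytosines were tested, 10 without the highest coverage, and 3 to 44 when 1 sample was left out (44 without DMSO 1, 9 without DMSO 2 and 3 without DBP 1). Calls lower in DBP made up 16 of 22 with all samples, 21 of 44 without DMSO 1 and 2 of 9 without DMSO 2. The replicate block gave 1 call among cytosines chosen by the 6 other samples, and leaving out 1 sample 0 to 2. The cause was not tested. Correlations of deviations between same-numbered DMSO and DBP samples were -0.00764, -0.0355 and 0.0289.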
